A study of Mus musculus with 5 samples.

Results

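The transcripts of 46 extracellular matrix genes, coding for matrix glycoproteins, microfibril and basement membrane proteins and the lysyl oxidases that crosslink them, were described in LPS-treated bone marrow-derived macrophages (BMDMs). They were taken by symbol from the 21878 genes of the deposited table, without collagens or small proteoglycans, and all 46 were found. The group was made of 14 matricellular and adhesive glycoproteins, 16 elastic fibre and microfibril proteins, 5 lysyl oxidases, 9 basement membrane proteins, and versican with the procollagen processing enhancer Pcolce. Samples labelled Kdm6aF/Y;Lyz2-Cre (Kdm6a-deficient, replicates 1, 2 and 3) were set against samples labelled Kdm6aF/Y (wild-type, replicates 1 and 3), giving 3 and 2 libraries. Both groups carried the floxed Kdm6a allele and both were treated with LPS, and they differed in the Cre recombinase, which is driven from the lysozyme 2 gene of myeloid cells. As the methods of the study describe, marrow of 10-week-old male mice was cultured with M-CSF, the growth factor of macrophages, at 10 ng/ml for 6 days and without it for 3 days, and LPS polarisation used 100 ng/ml for 24 h. Libraries were built from pooled RNA samples and nothing in the labels ties the samples to separate mice, so the p-values reflect only how far these 5 samples spread, and that spread may be technical.

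The extracellular matrix is a network of secreted proteins in which fibronectin and collagens carry the cells and elastic fibres give recoil. Lysyl oxidases oxidise lysine side chains so that collagen and elastin chains can join, and laminins, nidogens and perlecan build the thin sheet known as the basement membrane. Matricellular proteins such as SPARC, thrombospondins, tenascins and osteopontin are matrix-bound signals rather than scaffold. In bone marrow such proteins are known mainly from stromal, endothelial and bone-lining cells, whereas macrophages are known sources of fibronectin, osteopontin, thrombospondin 1 and TGFBI.

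Levels are in FPKM, the fragments counted for a gene divided by its transcript length and by the total mapped in that sample. A test was passed at a Benjamini-Hochberg adjusted p under 0.05 from limma, over the 10893 genes that reached 1 FPKM in 2 samples or more. Log2 fold changes, given with SE for their standard error, were Kdm6a-deficient over wild-type on the log2(FPKM + 1) scale, which understates the change of low genes. The total read number of each sample is not given in the sources used here, and 10641 to 10769 genes reached 1 FPKM in a sample. The targeted gene Kdm6a had 2.81, 1.77 and 2.44 FPKM in Kdm6a-deficient samples, against 3.72 and 2.91 FPKM in wild-type samples. All 3 Kdm6a-deficient values were lower, but the log2 fold change of −0.38 did not pass (limma adjusted p = 0.268), and FPKM of the whole gene cannot show whether the floxed exon was lost. Lyz2, the lysozyme 2 gene, had 8260, 9119 and 9127 FPKM in Kdm6a-deficient samples, against 18563 and 19359 FPKM in wild-type samples. Its log2 fold change of −1.10 passed (limma adjusted p = 0.00722), and the cause of this difference was not tested. Macrophage markers were high in every sample: 10 of 10 passed the filter on low values, and 0 passed the test in limma. At an unadjusted p under 0.05, 3 were higher and 0 lower, beside 876 and 1004 of the 10893 tested genes. Adgre1, the gene of F4/80, averaged 784 ± 48.4 FPKM in Kdm6a-deficient samples (SD, n = 3) and 741 ± 6.35 FPKM in wild-type samples (SD, n = 2). In a principal component analysis of the tested genes, the first component held 50.2% of the variance and separated the genotypes. The second held 32.5% and set Kdm6a-deficient sample 2 (−14.5) apart from samples 1 (9.22) and 3 (4.31). It also split the wild-type samples, with sample 1 at 7.68 and sample 3 at −6.67.

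Matrix transcripts were abundant in these cultures, and where they differed past the threshold nearly all were lower in Kdm6a-deficient BMDMs. Of the 46 genes, 41 passed the filter and were tested, 1 of them (Sparcl1) only through the wild-type samples, and 9 of these fell: Tnn, Fbln2, Sparcl1, Fn1, Ecm1, Hspg2, Nid2, Lamb1 and Sparc. One gene, Ltbp2, rose, and 31 did not pass the test. The 9 genes were 22% of the 41 tested, beside 2.18% of all tested genes that were lower, and the gene that rose was 2.44%, beside 1.73% of all tested genes that were higher. In 28 of the 41 genes (68.3%) each of the 3 Kdm6a-deficient samples lay below both wild-type values, beside 19.2% of all tested genes. The reverse, with all 3 Kdm6a-deficient samples above, held for Ltbp2, Loxl3 and Lamb2, and for 16.7% of all tested genes. The median log2 fold change of the 41 genes was −0.24, with a range of −1.06 to 0.57, and that of all tested genes was 0.00. At an unadjusted p under 0.05, 22 of the 41 were lower and 2 were higher, beside 1004 and 876 of the 10893 tested genes. The 46 genes were chosen with earlier results of these data known, so these shares and the median describe the list and are no test of it. For 1 gene with samples split 3 to 2, the smallest p that exact permutation can reach is 0.1, so each call rests on the spread that limma shares across genes.

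The summed level of the 46 genes was 4674, 4516 and 4650 FPKM in the Kdm6a-deficient samples and 5775 and 5916 FPKM in the wild-type samples. That was 1.2%, 1.04% and 1.16% of all FPKM in the Kdm6a-deficient samples and 1.44% in each wild-type sample. By mean level over the 5 samples, Sparc had rank 28, Spp1 rank 56 and Thbs1 rank 69 among all genes, and these 3 were among the 100 highest. In all 5 samples 9 genes were at 100 FPKM or more and 28 were at 10 FPKM or more. In a bulk sample, fewer cells of a type and less RNA per cell cannot be told apart, and this holds for every value below.

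**Figure D1:**
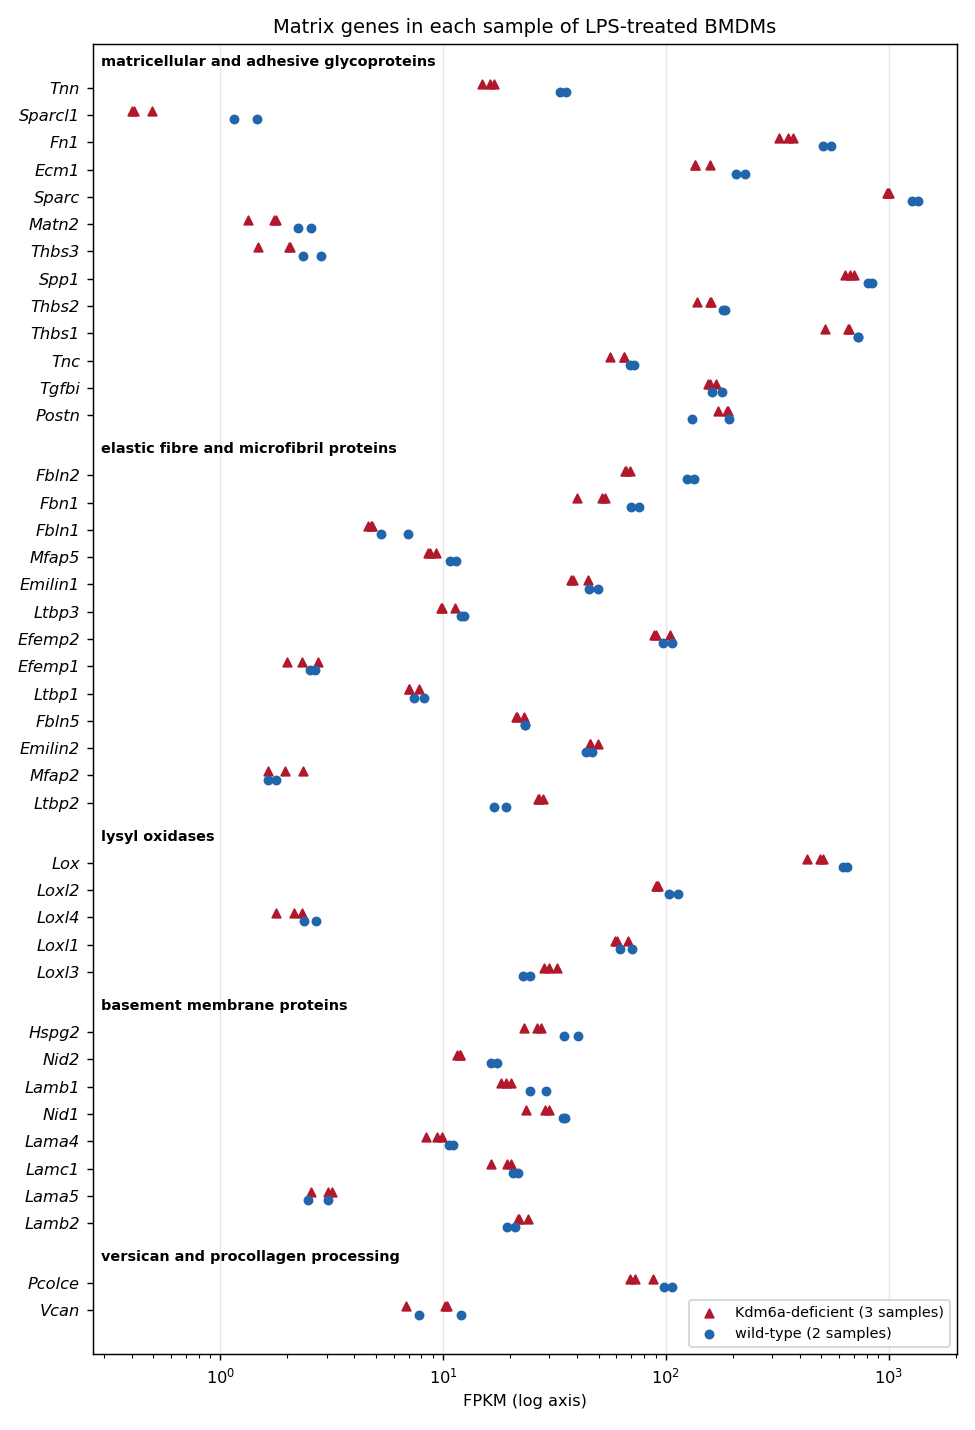
FPKM (log axis) of the 41 tested matrix genes in each sample, ordered by class and by log2 fold change within it, with Kdm6a-deficient samples as triangles and wild-type samples as circles. The 3 triangles lie left of both circles in 28 genes and right of both in Ltbp2, Loxl3 and Lamb2.

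The matricellular and adhesive glycoproteins held 5 of the 9 genes that fell, out of 13 tested, and 11 of the 13 had all Kdm6a-deficient samples below both wild-type samples. Their median log2 fold change was −0.33. Tnn (GeneID 329278) encodes tenascin-W, a tenascin known from developing bone and from stroma around tumours. It was at 17.0, 15.03 and 16.2 FPKM in Kdm6a-deficient samples, against 33.5 and 35.7 FPKM in wild-type samples. The groups lay far apart, and no Kdm6a-deficient sample came near the lower wild-type value. The log2 fold change was −1.06 (SE 0.08, limma adjusted p = 0.00118), the largest fall among the 41 genes on the log2(FPKM + 1) scale. Mean FPKM in Kdm6a-deficient samples was 0.465 of the wild-type mean. By that ratio Sparcl1, a low gene, fell further, to 0.332. For Tnn the adjusted p stayed at or below 0.0162 without any single sample.

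Fibronectin and ECM1 fell by similar amounts. Fn1 (GeneID 14268) encodes fibronectin, which binds integrins and on which other matrix proteins assemble. Its level was 373, 321 and 352 FPKM in Kdm6a-deficient samples and 508 and 554 FPKM in wild-type samples. Every Kdm6a-deficient sample was lower than both wild-type samples, with sample 2 the lowest of the 5. Fibronectin mRNA had a log2 fold change of −0.61 (SE 0.09, limma adjusted p = 0.0155). The test was no longer passed without wild-type sample 1 (adjusted p = 0.0600), wild-type sample 3 (0.187) or Kdm6a-deficient sample 3 (0.0952). Ecm1 (GeneID 13601) encodes extracellular matrix protein 1, a secreted glycoprotein that binds perlecan. It had 135, 157 and 135 FPKM in Kdm6a-deficient samples and 207 and 226 FPKM in wild-type samples. The groups did not overlap, and here sample 2 was the highest of the Kdm6a-deficient samples. Its log2 fold change was −0.61 (SE 0.09, limma adjusted p = 0.0165), and the adjusted p was 0.0518 and 0.169 without wild-type samples 1 and 3, and 0.0524 and 0.0991 without Kdm6a-deficient samples 1 and 3.

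Sparc and its relative Sparcl1 both fell, and by mean level over all samples they were the highest and the lowest of the 41 tested genes. Sparc (GeneID 20692), also known as osteonectin, encodes a calcium-binding protein that binds collagen. Its level was 983, 1010 and 990 FPKM in Kdm6a-deficient samples and 1278 and 1358 FPKM in wild-type samples. The 3 Kdm6a-deficient samples lay close together and well under the wild-type samples, and the mean FPKM fell by 24.5%. Sparc had a log2 fold change of −0.41 (SE 0.08, limma adjusted p = 0.0466). This call stood near the threshold: the adjusted p was 0.217 and 0.504 without wild-type samples 1 and 3, 0.127 and 0.244 without Kdm6a-deficient samples 1 and 3, 0.114 with no filter on low values and 0.0574 with a filter on all 5 samples. Sparcl1 (GeneID 13602), also known as hevin, was at 0.401, 0.409 and 0.495 FPKM in Kdm6a-deficient samples and 1.16 and 1.47 FPKM in wild-type samples. It passed the filter only through the wild-type samples, so it had to differ to be tested. Its log2 fold change was −0.69 (SE 0.10, limma adjusted p = 0.0123), or −1.40 with a pseudocount of 0.1 FPKM, and the adjusted p was 0.0574 without Kdm6a-deficient sample 3. Without either wild-type sample, or with the filter on all 5 samples, it was not tested.

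Osteopontin and the thrombospondins were lower in every Kdm6a-deficient sample and did not pass the test. Spp1 (GeneID 20750), which encodes the phosphoprotein osteopontin, was at 635, 702 and 671 FPKM in Kdm6a-deficient samples and 840 and 812 FPKM in wild-type samples (log2 fold change −0.30, limma adjusted p = 0.115). It passed with quantile normalization (adjusted p = 0.0458) and without Kdm6a-deficient sample 2 (0.0295). An annotated transcript of unsettled coding status on the same strand shares 18.8% of its exonic bases, so reads there cannot be assigned to 1 gene. Thbs1, the gene of thrombospondin 1, an activator of latent TGF-beta, had 664, 520 and 658 FPKM in Kdm6a-deficient samples and 726 and 728 FPKM in wild-type samples. Sample 2 lay well below the other Kdm6a-deficient samples, and the log2 fold change was −0.25 (limma adjusted p = 0.351). Thbs2, a relative known to limit vessel growth, was at 160, 139 and 158 FPKM in Kdm6a-deficient samples and 180 and 184 FPKM in wild-type samples (−0.26, adjusted p = 0.168). Thbs3 was at 2.03, 2.05 and 1.48 FPKM in Kdm6a-deficient samples and 2.35 and 2.82 FPKM in wild-type samples (−0.33, adjusted p = 0.231). All 3 thrombospondin genes kept the genotypes apart, with gaps that were small beside the spread of the Kdm6a-deficient samples in Thbs1 and Thbs3.

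Of the other matricellular genes, 2 kept the genotypes apart and 2 did not. Tnc, which encodes tenascin-C, a tenascin of inflamed tissue, was at 64.7, 56.0 and 64.8 FPKM in Kdm6a-deficient samples and 68.9 and 71.7 FPKM in wild-type samples (log2 fold change −0.18, limma adjusted p = 0.337). Matn2, the gene of the filament-forming adaptor matrilin 2, was at 1.34, 1.79 and 1.73 FPKM in Kdm6a-deficient samples and 2.55 and 2.23 FPKM in wild-type samples (−0.37, adjusted p = 0.140). The fold change of Tnc was small beside that of its relative Tnn. Tgfbi, which encodes a TGF-beta-induced adhesion protein, was at 158, 168 and 154 FPKM in Kdm6a-deficient samples and 162 and 178 FPKM in wild-type samples, and the groups overlapped (−0.09, adjusted p = 0.651). Postn, the gene of periostin, a protein of periosteum and fibrotic tissue, was at 189, 188 and 172 FPKM in Kdm6a-deficient samples and 191 and 131 FPKM in wild-type samples. The wild-type samples of Postn lay further apart than any pair of Kdm6a-deficient samples, so its log2 fold change of 0.21 (adjusted p = 0.567) was −0.07 without wild-type sample 3. Tnxb, the gene of tenascin-X, was not tested and did not exceed 0.0125 FPKM in any sample.

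Among elastic fibre and microfibril genes 13 of 16 were tested, 1 fell, 1 rose, and the median log2 fold change was −0.11. Fbln2 (GeneID 14115) encodes fibulin 2, which bridges fibronectin, fibrillin and basement membrane proteins. Its level was 69.3, 65.6 and 66.4 FPKM in Kdm6a-deficient samples and 125 and 134 FPKM in wild-type samples. The Kdm6a-deficient samples lay within a narrow range and far below the wild-type samples, and the mean FPKM fell by 48.2%. Its log2 fold change was −0.94 (SE 0.07, limma adjusted p = 0.00116), and without any single sample the adjusted p stayed at or below 0.0192. Tnn and Fbln2 were the only 2 of the 10 genes past the threshold that passed under all 13 alternative settings.

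Ltbp2 (GeneID 16997) was the gene that rose. It encodes a microfibril protein of the family that binds latent TGF-beta, of which this member is known not to bind it. Its level was 27.1, 28.1 and 26.6 FPKM in Kdm6a-deficient samples and 17.0 and 19.2 FPKM in wild-type samples. All Kdm6a-deficient samples were above both wild-type samples, and the mean was 50.5% higher. Ltbp2 had a log2 fold change of 0.57 (SE 0.08, limma adjusted p = 0.0114), and the adjusted p was 0.0705 and 0.0519 without wild-type samples 1 and 3 and 0.0686 without Kdm6a-deficient sample 3. An antisense transcript overlaps 11.3% of its exonic bases, and whether reads were counted by strand is not given in the sources used here. The other family members did not share this direction: Ltbp1 was at 7.06, 7.04 and 7.77 FPKM in Kdm6a-deficient samples and 7.42 and 8.23 FPKM in wild-type samples, and Ltbp3 was at 9.91, 11.3 and 9.82 FPKM in Kdm6a-deficient samples and 12.0 and 12.4 FPKM in wild-type samples. Neither passed the test (log2 fold changes −0.09 and −0.22, adjusted p = 0.690 and 0.257 from limma), and whether the members of the family differed from each other in response was not tested.

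Fbn1 (GeneID 14118), the gene of fibrillin 1, the backbone of microfibrils, had a fold change as large as that of fibronectin but a wider spread. Its level was 53.2, 39.9 and 51.5 FPKM in Kdm6a-deficient samples and 69.7 and 75.4 FPKM in wild-type samples. The groups did not overlap, and sample 2 was well below the other Kdm6a-deficient samples. For Fbn1 the log2 fold change was −0.59 (SE 0.13, limma adjusted p = 0.0535), just outside the threshold, and without Kdm6a-deficient sample 2 it was −0.46 with an adjusted p of 0.0165. A gene on the opposite strand shares 20.3% of the exonic bases of Fbn1. Mfap5, which encodes a microfibril-associated glycoprotein, was at 8.70, 9.30 and 8.53 FPKM in Kdm6a-deficient samples and 10.8 and 11.5 FPKM in wild-type samples. It did not pass either (−0.30, adjusted p = 0.105), and it did without Kdm6a-deficient sample 2 (adjusted p = 0.0468).

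The other fibulins and fibulin-like genes differed less than Fbln2. Fbln1, of elastic fibres and basement membranes, was at 4.63, 4.77 and 4.81 FPKM in Kdm6a-deficient samples and 5.27 and 6.97 FPKM in wild-type samples (log2 fold change −0.30, limma adjusted p = 0.236). Fbln5, needed for elastic fibre assembly, was at 21.2, 21.4 and 23.0 FPKM in Kdm6a-deficient samples and 23.2 and 23.4 FPKM in wild-type samples (−0.09, adjusted p = 0.619). The genotypes did not overlap in either, by a narrow margin in Fbln5. Efemp2, the gene of fibulin 4, which brings lysyl oxidase to elastin, was at 90.1, 105 and 88.1 FPKM in Kdm6a-deficient samples and 97.1 and 106 FPKM in wild-type samples (−0.11, adjusted p = 0.633). Efemp1, the gene of fibulin 3, was at 2.32, 1.99 and 2.74 FPKM in Kdm6a-deficient samples and 2.51 and 2.67 FPKM in wild-type samples (−0.11, adjusted p = 0.717). The genotypes overlapped in both.

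The remaining elastic fibre genes gave no call. Emilin1, which encodes an elastin-associated glycoprotein, was at 38.5, 44.9 and 37.5 FPKM in Kdm6a-deficient samples and 44.98 and 49.4 FPKM in wild-type samples (log2 fold change −0.23, limma adjusted p = 0.296). Emilin2 was at 45.6, 49.6 and 45.8 FPKM in Kdm6a-deficient samples and 43.7 and 46.8 FPKM in wild-type samples (0.05, adjusted p = 0.786). Sample 2 was the highest Kdm6a-deficient sample in both, and only Emilin2 overlapped between genotypes. Mfap2, another microfibril-associated glycoprotein, was at 1.95, 2.34 and 1.64 FPKM in Kdm6a-deficient samples and 1.79 and 1.63 FPKM in wild-type samples, with overlap (0.13, adjusted p = 0.653). Elastin itself, the core of the elastic fibre, was almost undetected: Eln did not exceed 0.138 FPKM in any sample and Mfap4 did not exceed 0.0710 FPKM. Fbn2, which encodes fibrillin 2, did not reach the filter either, at 0.283, 0.250 and 0.275 FPKM in Kdm6a-deficient samples and 0.602 and 0.649 FPKM in wild-type samples. When the filter was dropped, its log2 fold change was −0.36 with an adjusted p of 0.0131 from limma.

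No lysyl oxidase gene passed the test, in either direction, and the 5 tested had a median log2 fold change of −0.20. At an unadjusted p under 0.05, 2 of the 5 were lower and 1 was higher, beside 1004 and 876 of the 10893 tested genes. Lox (GeneID 16948) encodes the lysyl oxidase that is needed for collagen and elastin crosslinks in mice. Its level was 507, 429 and 494 FPKM in Kdm6a-deficient samples and 648 and 626 FPKM in wild-type samples. The groups stood apart and sample 2 was again the lowest. The fold change of Lox was −0.42 on the log2 scale (SE 0.10, limma adjusted p = 0.0640), and without sample 2 it was −0.35 with an adjusted p of 0.0220. Loxl3 (GeneID 16950) ran the other way, at 28.3, 32.6 and 30.0 FPKM in Kdm6a-deficient samples and 22.8 and 24.5 FPKM in wild-type samples. All Kdm6a-deficient samples were above the wild-type samples. The difference, 0.34 on the log2 scale, did not pass (adjusted p = 0.0811). It passed in limma with a replicate block (adjusted p = 0.0282) and with the trend in transcript length removed (0.0426). Loxl3 shares 13.1% of its exonic bases with Htra2 on the opposite strand, which did not pass the test (log2 fold change 0.03).

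The other lysyl oxidase-like genes lay between Lox and Loxl3. Loxl2, which acts on collagen IV, was at 92.3, 90.9 and 90.1 FPKM in Kdm6a-deficient samples and 103 and 113 FPKM in wild-type samples (log2 fold change −0.24, limma adjusted p = 0.132). Loxl1, needed for elastic fibre upkeep, was at 59.3, 67.5 and 60.1 FPKM in Kdm6a-deficient samples and 62.3 and 70.2 FPKM in wild-type samples (−0.09, adjusted p = 0.704). Loxl4 was at 2.15, 1.77 and 2.31 FPKM in Kdm6a-deficient samples and 2.37 and 2.69 FPKM in wild-type samples (−0.20, adjusted p = 0.408). The genotypes overlapped for Loxl1 and stood apart for Loxl2 and, by a small gap, for Loxl4.

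Basement membrane genes included 3 of the 9 genes that fell, out of 8 tested, with a median log2 fold change of −0.28. Nid2 (GeneID 18074) encodes nidogen 2, a linker between laminin and collagen IV. Rtraf on the opposite strand shares 9.0% of its exonic bases. Nid2 was at 11.5, 11.9 and 11.9 FPKM in Kdm6a-deficient samples and 16.4 and 17.5 FPKM in wild-type samples. The Kdm6a-deficient samples were nearly equal and the groups lay far apart beside that spread. The log2 fold change was −0.49 (SE 0.07, limma adjusted p = 0.0150), with adjusted p of 0.0590 and 0.179 without wild-type samples 1 and 3 and 0.0572 and 0.0886 without Kdm6a-deficient samples 1 and 3. Hspg2 (GeneID 15530), the gene of the heparan sulfate proteoglycan perlecan, was at 27.5, 23.2 and 26.3 FPKM in Kdm6a-deficient samples and 34.7 and 40.5 FPKM in wild-type samples. It was lower in all 3 Kdm6a-deficient samples, with a log2 fold change of −0.54 (SE 0.10, adjusted p = 0.0353), which was no longer past the threshold without wild-type sample 3 (0.288), without Kdm6a-deficient samples 1 (0.0548) or 3 (0.135), or with no filter on low values (0.0764).

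Of the laminin chains, Lamb1 fell and the others did not pass the test. Lamb1 (GeneID 16777), the gene of the beta 1 chain, was at 20.2, 18.1 and 19.2 FPKM in Kdm6a-deficient samples and 24.6 and 28.9 FPKM in wild-type samples. The groups did not overlap, and the log2 fold change was −0.46 (SE 0.09, limma adjusted p = 0.0431). This was the least stable of the calls: without wild-type samples 1 and 3 the adjusted p was 0.0542 and 0.354, without Kdm6a-deficient samples 1, 2 and 3 it was 0.0792, 0.0543 and 0.175, and it was 0.0792 with no filter on low values and 0.0550 in limma without the trend. Lamc1, the gamma 1 chain that pairs with most beta chains, was at 20.3, 16.4 and 19.4 FPKM in Kdm6a-deficient samples and 20.7 and 21.7 FPKM in wild-type samples (−0.18, adjusted p = 0.439). Lama4, an alpha chain of vessel walls, was at 9.40, 8.40 and 9.90 FPKM in Kdm6a-deficient samples and 10.7 and 11.04 FPKM in wild-type samples (−0.21, adjusted p = 0.283). In both chains the genotypes stood apart, with sample 2 the lowest.

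The beta 2 chain gene Lamb2 ran opposite to Lamb1, at 21.6, 24.1 and 21.9 FPKM in Kdm6a-deficient samples and 19.3 and 21.0 FPKM in wild-type samples. The Kdm6a-deficient samples were above by a small margin (log2 fold change 0.15, limma adjusted p = 0.400), and whether Lamb1 and Lamb2 differed in response was not tested. Lama5 was at 3.03, 2.56 and 3.19 FPKM in Kdm6a-deficient samples and 2.48 and 3.04 FPKM in wild-type samples, with overlap. Its log2 fold change of 0.06 was −0.05 without wild-type sample 1. Nid1, the gene of nidogen 1, was at 29.9, 23.5 and 28.7 FPKM in Kdm6a-deficient samples and 34.4 and 35.4 FPKM in wild-type samples (−0.35, adjusted p = 0.158), so that both nidogens were lower in every Kdm6a-deficient sample and Nid2 alone passed. Lama2, the alpha 2 chain of muscle and nerve, was below the filter at 0.429, 0.274 and 0.409 FPKM in Kdm6a-deficient samples and 0.755 and 0.759 FPKM in wild-type samples. With no filter its log2 fold change was −0.36 (adjusted p = 0.0545).

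Pcolce and Vcan were not past the threshold. Pcolce encodes a glycoprotein that enhances the cleavage of the procollagen C-terminal propeptide, and it was at 68.9, 87.4 and 72.5 FPKM in Kdm6a-deficient samples and 98.0 and 107 FPKM in wild-type samples. All Kdm6a-deficient samples were lower, with sample 2 the closest to the wild-type samples, and the log2 fold change was −0.43 (limma adjusted p = 0.0969). Without sample 2 it was −0.53 with an adjusted p of 0.0140, and quantile normalization gave 0.0250. Vcan, the gene of versican, a large hyaluronan-binding proteoglycan of myeloid and stromal cells, was at 10.5, 6.80 and 10.2 FPKM in Kdm6a-deficient samples and 12.0 and 7.80 FPKM in wild-type samples. Here samples differed within each genotype by more than the genotypes did, and the log2 fold change of −0.10 (SE 0.21) became 0.18 when wild-type sample 1 was left out and 0.08 when Kdm6a-deficient sample 2 was.

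**Figure D2:**
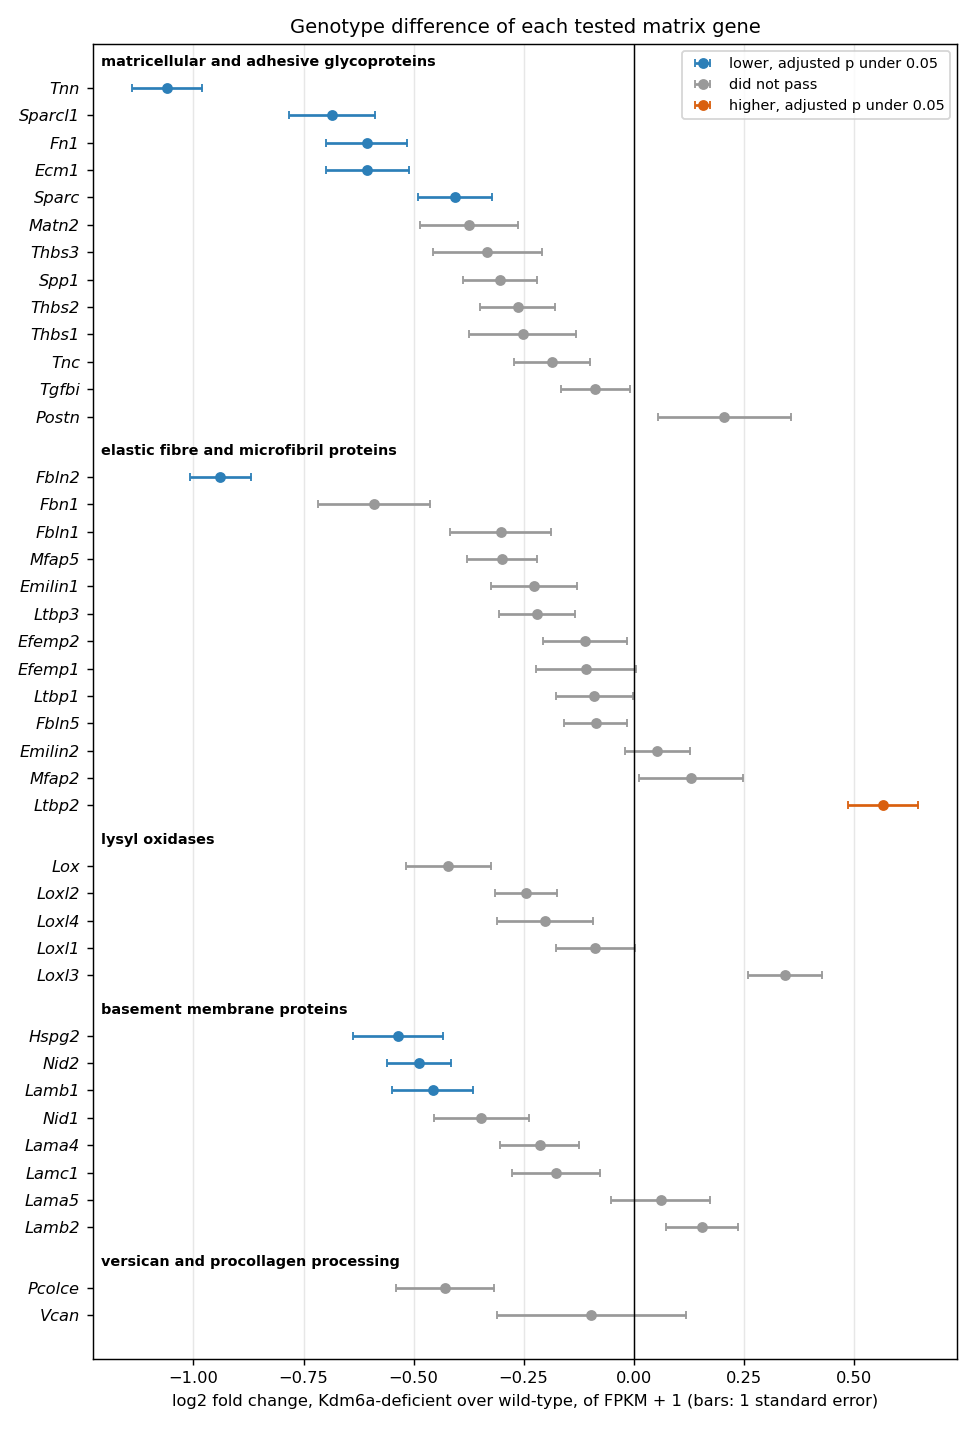
Log2 fold change of each tested matrix gene, Kdm6a-deficient over wild-type on the log2(FPKM + 1) scale, with bars of 1 standard error from limma; blue genes were lower and orange genes higher at an adjusted p under 0.05. Tnn (−1.06) and Fbln2 (−0.94) lie furthest to the left and Ltbp2 (0.57) furthest to the right, and 34 of the 41 points are below 0.

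The spread among the Kdm6a-deficient samples followed transcript length, and many matrix transcripts are long. Sample 2 was the lowest Kdm6a-deficient sample in 18 of the 41 genes, with a median longest transcript of 6068.5 bases, and the highest in 17, with a median of 3297 bases. Across these 41 genes, Spearman's rho between transcript length and the distance of sample 2 from the mean of samples 1 and 3 was −0.647, and over the 10841 tested genes with a length it was −0.611. These are descriptions across genes of 1 library, and genes are not independent replicates. The distance, on the log2(FPKM + 1) scale, was −0.54 for Vcan, −0.38 for Fbn1 and −0.35 for Thbs1, and it was 0.30 for Pcolce and 0.26 for Mfap2. For the difference between the 2 wild-type samples, Spearman's rho with transcript length was −0.00244 in the matrix genes and −0.268 over all tested genes. For the log2 fold change between genotypes, Spearman's rho with transcript length was 0.0382 in the matrix genes and −0.162 over all tested genes.

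Without Kdm6a-deficient sample 2, 13 matrix genes were lower and 1 was higher, against 9 and 1 with it. The 14 genes included 9 of the 10 past the threshold with all samples, all but Lamb1, and added Fbn1, Lox, Mfap5, Pcolce and Spp1. Beside them, 3.66% of all tested genes were lower and 2.59% were higher without that sample. When the trend of each sample with transcript length was removed, an alternative chosen after the data were seen, 16 matrix genes were lower and 2 higher, beside 4.07% and 3.23% of all tested genes, and all 10 genes past the threshold in the main comparison were among them. Leaving out any other sample lowered the counts: 3 and 2 genes were lower without wild-type samples 1 and 3, and 4 and 2 without Kdm6a-deficient samples 1 and 3, beside 0.751%, 0.324%, 1.08% and 0.571% of all tested genes. Where a wild-type sample was left out, the other was assumed to vary as the Kdm6a-deficient samples did.

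**Figure D3:**
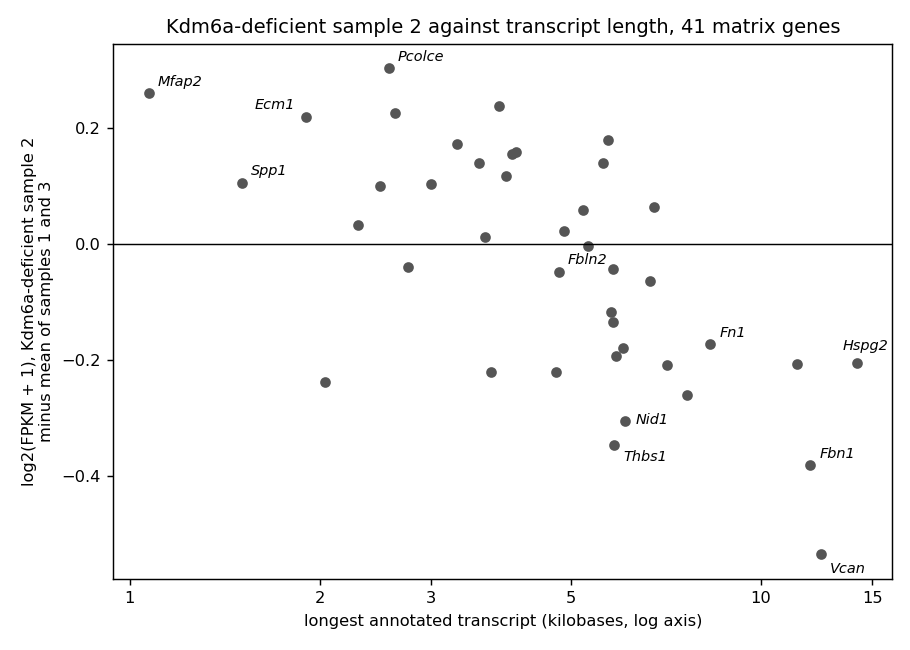
Distance of Kdm6a-deficient sample 2 from the mean of Kdm6a-deficient samples 1 and 3, in log2(FPKM + 1), against the longest annotated transcript in kilobases (log axis) for the 41 tested matrix genes. Short transcripts such as Mfap2 (0.26) and Pcolce (0.30) lie above 0 and long ones such as Fbn1 (−0.38) and Vcan (−0.54) below it.

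Promoter sequence is shown for the tested genes with the largest log2 fold changes in each direction (Tnn, Fbln2 and Ltbp2). It is also shown for Ecm1, whose promoter held most kinds of motif searched. Each run is the 250 bases before the start of the gene in RefSeq, build GRCm38.p6, read 5′ to 3′ along the gene, and the capitals mark matches to the motifs named after it. Tnn lies at chr1:160153576-160153825 on the minus strand, Fbln2 at chr6:91212514-91212763 on the plus strand, Ecm1 at chr3:95739570-95739819 on the minus strand and Ltbp2 at chr12:84876492-84876741 on the minus strand.
Tnn: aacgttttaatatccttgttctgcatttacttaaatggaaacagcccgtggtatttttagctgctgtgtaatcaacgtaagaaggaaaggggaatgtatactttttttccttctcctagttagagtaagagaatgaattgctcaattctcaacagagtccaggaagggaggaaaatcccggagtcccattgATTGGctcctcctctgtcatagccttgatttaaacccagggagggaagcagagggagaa
Fbln2: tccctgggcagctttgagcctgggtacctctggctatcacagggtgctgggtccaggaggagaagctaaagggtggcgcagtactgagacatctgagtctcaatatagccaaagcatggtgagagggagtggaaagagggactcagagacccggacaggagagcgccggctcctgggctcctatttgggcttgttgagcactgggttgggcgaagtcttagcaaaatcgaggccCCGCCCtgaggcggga
Ecm1: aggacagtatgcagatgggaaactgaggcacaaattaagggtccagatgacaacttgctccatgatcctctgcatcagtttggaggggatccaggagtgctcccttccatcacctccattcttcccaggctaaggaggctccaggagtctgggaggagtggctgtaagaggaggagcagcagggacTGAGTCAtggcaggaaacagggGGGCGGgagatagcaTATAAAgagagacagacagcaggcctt
Ltbp2: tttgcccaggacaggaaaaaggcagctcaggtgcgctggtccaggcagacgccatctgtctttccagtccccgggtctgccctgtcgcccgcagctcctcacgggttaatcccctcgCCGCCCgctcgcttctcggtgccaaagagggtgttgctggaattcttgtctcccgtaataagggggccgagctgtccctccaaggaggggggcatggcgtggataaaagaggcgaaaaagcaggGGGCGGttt
The Tnn promoter held a CCAAT box on the opposite strand, 59 bases before the start, and no match to the other motifs. The Fbln2 promoter held a GC box on the opposite strand at 16 bases, and the Ltbp2 promoter held GC boxes at 9 bases on the same strand and at 133 bases on the opposite strand. The Ecm1 promoter held a TATA box at 27 bases, a GC box at 42 bases and, on the opposite strand, an AP-1 site at 64 bases before the start.

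Of the 46 genes, 31 had 41 promoters in that table. The TATA box, TATAAA between 45 and 11 bases before the start on the same strand, was in 2 of the 41 promoters and in 2.22% of all 32851 promoters. The AP-1 site, TGACTCA on either strand, was in 2 of the 41 and in 4.46% of all. The GC box, GGGCGG on either strand, was in 23 of the 41 and in 32.7% of all. The CCAAT box, CCAAT on either strand, was in 10 of the 41 and in 33.85% of all. None of these words contains another, although neighbouring matches can overlap. A match describes letters in this window and is no binding site, and a missing match says only that the letters were not there.

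Other matrix glycoproteins, a list of 58 genes outside the 46, were divided in direction. Of 33 tested, 4 were lower and 2 were higher (12.1% and 6.06%, beside 2.18% and 1.73% of all tested genes). The median log2 fold change was 0.02. Wisp1, a matricellular protein of the CCN family induced by WNT1, was at 20.1, 17.2 and 20.9 FPKM in Kdm6a-deficient samples and 38.9 and 36.1 FPKM in wild-type samples (−0.92, limma adjusted p = 0.00371). Spon1, the gene of the adhesion protein F-spondin (−0.57, adjusted p = 0.0244), Srpx (−0.45, 0.0271) and Mmrn2, a multimerin of endothelium (−0.61, 0.0374), were lower too. Mmrn2 passed the filter only through the wild-type samples, so its test depended on the difference. Ltbp4, which did not pass the test (−0.51, adjusted p = 0.0788), also passed the filter only through the wild-type samples. Ecm2 (0.02) passed the filter only through the Kdm6a-deficient samples, and the median of this list rests in part on that filter. The calls of Spon1, Srpx and Mmrn2 were lost without Kdm6a-deficient sample 1 or 3 and, where the gene was still tested, without either wild-type sample, at adjusted p of 0.0742 to 0.264. Npnt, the gene of nephronectin, a ligand of integrin alpha 8 beta 1, rose, with 6.88, 6.45 and 7.5 FPKM in Kdm6a-deficient samples and 3.02 and 3.46 FPKM in wild-type samples (0.90, adjusted p = 0.00392). Smoc1, a calcium-binding relative of SPARC, rose as well, with 4.96, 5.48 and 4.81 FPKM in Kdm6a-deficient samples and 2.33 and 2.29 FPKM in wild-type samples (0.88, adjusted p = 0.00315). The most abundant genes of this list, Ctgf, Igfbp7 and Mfge8, did not pass (log2 fold changes 0.17, 0.31 and −0.27).

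Receptors for matrix and the TGF-beta pathway, which is known to drive matrix genes in stromal cells, are given next. Of 23 tested matrix receptors 1 was lower and 1 higher (4.35% each, beside 2.18% and 1.73% of all tested genes), with a median log2 fold change of −0.07. Itga6, the laminin receptor chain alpha 6, was at 5.59, 4.37 and 5.28 FPKM in Kdm6a-deficient samples and 9.30 and 10.1 FPKM in wild-type samples (−0.82, limma adjusted p = 0.00962), and the adjusted p was 0.0541 with Kdm6a-deficient sample 3 left out and 0.0841 with wild-type sample 3 left out. Cd36, a scavenger receptor that binds thrombospondin 1, was at 278, 236 and 278 FPKM in Kdm6a-deficient samples and 183 and 149 FPKM in wild-type samples (0.67, adjusted p = 0.0260), with adjusted p of 0.220 without wild-type sample 3 and 0.0750 and 0.129 without Kdm6a-deficient samples 1 and 3. Itgb1, the beta 1 chain shared by most matrix integrins, did not pass (−0.13). Of 18 TGF-beta ligands, receptors and regulators 1 was lower (5.56%) and 0 were higher in limma, with a median of −0.03. At an unadjusted p under 0.05, 3 were lower and 2 higher, beside 1004 and 876 of the 10893 tested genes. Smad3, a signal carrier of the pathway, was at 9.51, 8.62 and 9.37 FPKM in Kdm6a-deficient samples and 12.6 and 13.5 FPKM in wild-type samples (−0.47, adjusted p = 0.0254). That call was lost without wild-type samples 1 (0.0809) and 3 (0.249) and without Kdm6a-deficient samples 1 (0.0655) and 3 (0.113). The ligand genes Tgfb1 (0.26) and Tgfb3 (0.06) did not pass.

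Markers of stromal and endothelial cells, which are known to make much of this matrix, were present in these macrophage cultures, and some of them differed between the genotypes as well. Of 14 tested stromal markers 5 were lower, Col1a1, Col1a2, Dcn, Lum and Twist1, and 1 was higher, Cxcl12 (35.7% and 7.14%, beside 2.18% and 1.73% of all tested genes), with a median log2 fold change of −0.29. Lum passed the filter only through the wild-type samples, at 0.527, 0.496 and 0.864 FPKM in Kdm6a-deficient samples and 1.956 and 2.0004 FPKM in wild-type samples, so it had to differ to be tested. Their summed level was 3106, 3204 and 3148 FPKM in Kdm6a-deficient samples and 3728 and 4025 FPKM in wild-type samples. Col1a1, which encodes a chain of collagen I, was at 653, 738 and 653 FPKM in Kdm6a-deficient samples and 991 and 1114 FPKM in wild-type samples (−0.63, limma adjusted p = 0.0178), and Cxcl12 was at 152, 150 and 161 FPKM in Kdm6a-deficient samples and 104 and 107 FPKM in wild-type samples (0.54, adjusted p = 0.00804). For Col1a1 the adjusted p was 0.0584 and 0.122 without Kdm6a-deficient samples 1 and 3 and 0.0651 and 0.239 without wild-type samples 1 and 3, and for Cxcl12 it was 0.0685 without Kdm6a-deficient sample 3 and 0.0674 and 0.0974 without wild-type samples 1 and 3. The list was not uniform, since Col3a1, Acta2 and Tagln, at 373 to 543 FPKM in all samples, did not pass (−0.04, 0.14 and 0.17). In 9 of the 14 genes (64.3%) all Kdm6a-deficient samples lay below both wild-type samples, beside 19.2% of all tested genes. In 4, Cxcl12, Kitl, Acta2 and Tagln, all lay above, beside 16.7%. Kitl, at 9.64, 7.53 and 9.06 FPKM in Kdm6a-deficient samples and 7.11 and 4.35 FPKM in wild-type samples, did not pass (0.56, limma adjusted p = 0.175). The count of lower stromal markers was 1 (Dcn) without either wild-type sample, where Lum was no longer tested, 3 without Kdm6a-deficient sample 1 and 2 without Kdm6a-deficient sample 3.

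Endothelial markers were scarce, and in all 6 tested the Kdm6a-deficient samples lay below both wild-type samples. Over all tested genes that share was 19.2%. Of the 6, Cdh5, Cldn5 and Tie1 were lower past the threshold (3 genes, 50%, beside 2.18% of all tested genes), and the median log2 fold change was −0.73. The summed level of the 12 listed genes was 11.8, 14.6 and 13.5 FPKM in Kdm6a-deficient samples and 24.4 and 25.2 FPKM in wild-type samples. The listed genes below the filter ran both ways. Kdr, Tek, Flt1 and Robo4 were lower in all Kdm6a-deficient samples, and Vwf and Sox17 overlapped between genotypes. Vwf averaged 0.452 FPKM in Kdm6a-deficient and 0.429 FPKM in wild-type samples, and Sox17 averaged 0.175 and 0.123 FPKM. Cldn5 and Tie1 passed the filter only through the wild-type samples, so they had to differ to be tested, and the count and median of this list rest in part on that choice. Without either wild-type sample these genes were no longer tested, and Cdh5 kept its call (adjusted p = 0.0125 without sample 1 and 0.0270 without sample 3). Of 6 tested osteoclast markers 3 were lower, Ctsk, Dcstamp and Mmp9 (50%, beside 2.18% of all tested genes), with a median of −0.34. Atp6v0d2 lay above both wild-type samples in every Kdm6a-deficient sample but did not pass (log2 fold change 0.50, limma adjusted p = 0.0553). Acp5, the most abundant of the 6 (0.09), and Nfatc1 (−0.19) did not pass either. The summed level of the list was 204 to 231 FPKM in Kdm6a-deficient samples and 231 to 240 FPKM in wild-type samples. Of 5 tested megakaryocyte and platelet markers 1 was higher (Ppbp, 20%, beside 1.73% of all tested genes), and the median was 0.43. Their summed level was 441, 571 and 501 FPKM in Kdm6a-deficient samples and 340 and 364 FPKM in wild-type samples. Itga2b passed the filter only through the Kdm6a-deficient samples, so the share and median of this list rest in part on that choice. Of 10 neutrophil markers 1 was higher (Ctsg, 10%, beside 1.73% of all tested genes). In limma 0 of 4 tested osteoblast and adipocyte markers passed, and all 4 were osteoblast genes (Alpl, Ibsp, Sp7 and Runx2). At an unadjusted p under 0.05, Alpl and Sp7 were higher and Runx2 was lower. The 3 tested lymphocyte markers were B cell genes (Cd79a, Cd79b and Ms4a1), and 0 passed in limma or at that unadjusted p. At that unadjusted p, 1004 of the 10893 tested genes were lower and 876 higher. Ctsg passed the filter only through the Kdm6a-deficient samples, so it had to differ to be tested, and its call was lost with any 1 of the 5 samples left out (adjusted p of 0.0570 to 0.145). The call of Ppbp was lost without Kdm6a-deficient samples 1 (0.0731) and 3 (0.127) and without wild-type samples 1 (0.127) and 3 (0.0519). Without wild-type sample 3 none of the osteoclast calls was kept (Ctsk 0.0673, Mmp9 0.169 and Dcstamp 0.170). Dcstamp was also lost without Kdm6a-deficient samples 1 (0.0960) and 3 (0.116) or wild-type sample 1 (0.106), and Mmp9 without Kdm6a-deficient sample 3 (0.0932). The adipocyte marker Plin1 was listed at 0 in all samples. The part of these cell types in the matrix differences was not tested.

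**Figure D4:**
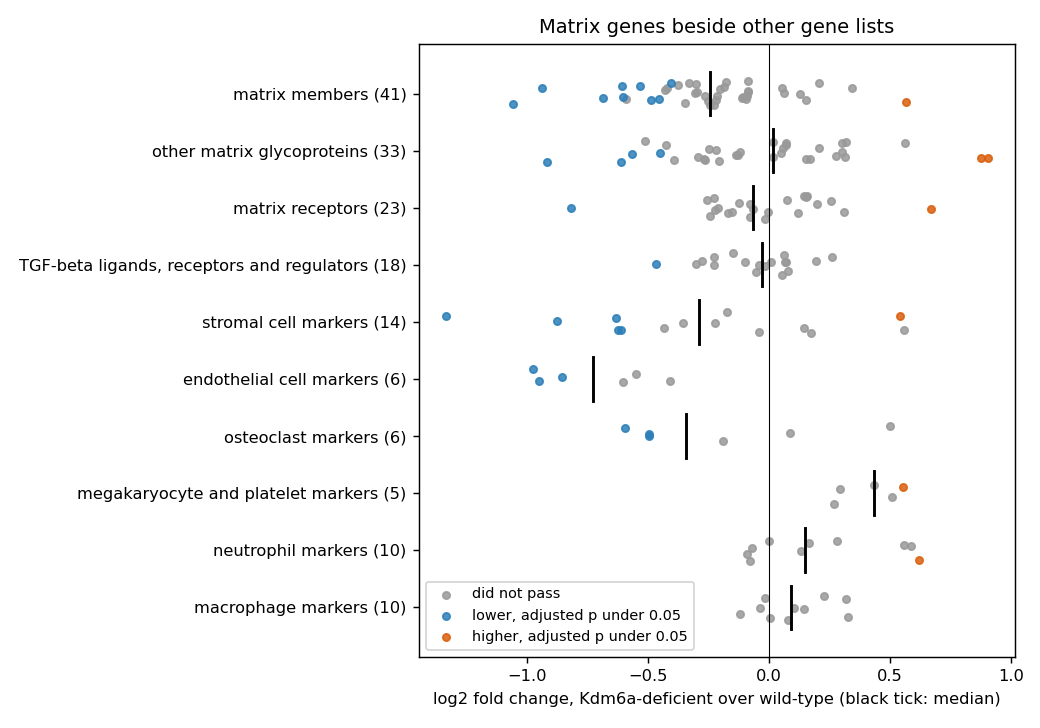
Log2 fold change, Kdm6a-deficient over wild-type on the log2(FPKM + 1) scale, of every tested gene in the matrix list and in 9 other lists, with the median of each list as a black tick and the number of tested genes in brackets. The median lay at −0.24 in the matrix list, −0.29 in stromal and −0.73 in endothelial markers, and at 0.02 in the other matrix glycoproteins. Sparcl1, Lum, Cldn5, Tie1, Mmrn2 and Ltbp4 passed the filter only through the wild-type samples. Ecm2, Itga2b and Ctsg passed it only through the Kdm6a-deficient samples, so the medians of these lists rest in part on the filter.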

How the data were processed

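RNA-seq of 5 samples of LPS-treated BMDMs was analysed, grouped by the genotype and replicate number in their labels. Before deposit, TopHat alignments were turned by the authors into one FPKM value per gene and sample, with Cufflinks. The same deposited table holds, per genotype, a signal value that is the mean of counts divided by size factors from DESeq, whose steps show that a further wild-type sample, not analysed here, entered it. The authors' fold change, a ratio, and their p-value columns in that table, raw and adjusted, were not used. Which build and versions each step used is not stated: the submitters' notes name Bowtie 0.12.2 and the builds mm8 and mm9 with no role, and the labels and the study's methods name different library kits. Total depth is unknown, so no counting error was computed.

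The design foresaw counts or FPKM, and the files held FPKM. A gene was tested if 2 samples or more reached 1 FPKM (10893 of 21878 genes). limma-trend was run on log2(FPKM + 1) with genotype as the sole term, and p-values were adjusted by Benjamini-Hochberg over all of them at 0.05. The fit was first tested on simulated data. The 46 matrix genes and the other lists were chosen with earlier results of these data known. All 46 are named. Of other lists, the genes past the threshold and up to 3 more by level are named, with some that ran the other way or that the filter affected. Symbols turned into dates (27) were restored by GeneID from RefSeq. Lengths and exon overlaps came from GENCODE vM21 (97.8% of genes with a length) and promoters from RefSeq, GRCm38.p6. As 13 alternatives, the data were fitted with 0.1 FPKM as pseudocount, no filter, a filter on all 5 samples, median-of-ratios scaling, quantile normalization, a replicate block, each of the 5 samples left out, limma without its trend and, added after the data were seen, removal of a length trend. Software was limma 3.58.1 in R 4.3.3, and pandas 2.3.3 and matplotlib 3.10.9 in Python 3.11.15. All per-sample columns were used.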

Additional observations from a re-analysis of the deposited data

How the results depend on the processing

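The count of genes past the threshold, 426 of all tested genes, was 996 with a replicate block, 791 with the length trend removed and 81 to 678 with 1 sample left out. The lower share of these calls, 55.9%, was 30.6% when wild-type sample 1 was left out and 43.2% when sample 3 was. The count of matrix genes that were lower, 9, was 16 with the block and 16 with the length trend removed. It was 2 to 13 with 1 Kdm6a-deficient sample left out. The count that were higher, 1, was 2 with the block and 2 with the length trend removed. With 1 Kdm6a-deficient sample left out it was 0 to 1. Beside these, 5.14% of all tested genes were lower and 4% higher with the block, against 2.18% and 1.73% in the main fit. What the replicate numbers shared by the genotypes, 1 and 3, stand for is not said in the labels or the study's methods. Deviations of same-numbered samples correlated at 0.432 and −0.144, and with 2 wild-type samples, whose deviations mirror each other, these values cannot settle whether the numbers pair the samples. Its fit sets Kdm6a-deficient sample 2 aside and gave the same log2 fold changes as leaving that sample out, and it lost 0 of the 10 calls of matrix genes. The cause of these shifts in count was not tested.

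Changes of sign in matrix genes were seen in 3 that did not pass the test. With 1 sample left out, the log2 fold change of Postn ranged from −0.066 to 0.48, that of Lama5 from −0.047 to 0.17 and that of Vcan from −0.38 to 0.18. Vcan was at 0.082 in the fit with the replicate block. The pseudocount of 0.1 FPKM and the median-of-ratios scaling kept all 10 calls of matrix genes, the filter on all 5 samples lost 2, no filter lost 3 and limma without its trend lost 1. Quantile normalization kept the 10 and added Pcolce and Spp1. No scaling moved the median of all genes by more than 0.1 on the log2 scale. Depth per sample is unknown, so no counting error can be given, and 5 matrix genes under 1 FPKM could not be compared with the same precision.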
